A study of Homo sapiens with 24 samples.

Results

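MicroRNA host genes are transcripts that carry microRNA hairpins. Here 8 genes listed as such and known from B cells were examined for super-enhancers in OCI-Ly7 cells. These cells are an established human line of GCB-DLBCL (diffuse large B-cell lymphoma of germinal center B-cell type). DLEU1 is called a host gene below with the rest, although no hairpin lay in its gene body on its strand. The genes were MIR155HG, MIR17HG, MIR181A1HG, DLEU1, DLEU2, MIR22HG, MIR29B2CHG and VMP1, 8 of 62062 annotated genes on chromosomes 1 to 22 and X. They were picked by name, and a super-enhancer was assigned to a host gene when it overlapped the GENCODE gene body (hg38) extended by 50 kb on each side. This gave 4 regions of the 2615 in the table. The study profiled H3K27ac, H3K4me1 and H3K4me3 by CUT&RUN, which sequences the DNA that an antibody-guided nuclease cuts free at a histone mark, in 24 samples forming 12 groups of 2 libraries. The genotypes were WT (CRISPR control clones that carried no edit), the HAT-inactivating CREBBP-R1446C point mutant, KMT2D-KO and their combination, all grown from single cells of this 1 line. Only H3K27ac in WT cells enters this report, as 1 pooled signal per region from 2 libraries with no control column. No value therefore has a replicate error, no test between groups was possible, and 22 samples had no value in the table.

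A super-enhancer is a run of neighboring enhancer peaks, here joined by the program ROSE, whose summed H3K27ac signal passes a cutoff (10617 in relative units). Its parts are called constituents. The 2615 regions had a median signal of 19736, a median length of 60.7 kb, a median of 16 constituents and a median signal per bp of 0.343. As a check of the labelled cell type, 6 of 8 B-cell marker genes had a region by the same 50 kb rule, led by those of CD79A, EBF1, PAX5 and MS4A1. In 3 of the 6 the region overlapped the gene body. Of 11 marker genes of T cells, erythroid cells, liver, nerve and muscle, 1 had a region, the T-cell receptor chain gene CD247.

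A host transcript is cut in the nucleus by DROSHA with DGCR8 into a hairpin, and DICER1 then releases a short duplex of which 1 strand, the mature microRNA, is loaded onto an Argonaute protein. Bases 2 to 8 of the mature strand, the seed, pair with target mRNAs and lower their output. In B cells, miR-155 is needed for a normal germinal center response, the cluster of MIR17HG promotes B-cell survival and growth, and miR-15a and miR-16 of DLEU2 restrain BCL2 and are often deleted in chronic lymphocytic leukemia. The mature strands below, from RefSeq (GRCh38.p14), are the products of the host genes and show which of them share a seed. Of 15 strands looked up, 15 were matched, with 10 different seeds, and capitals mark the seed.
hsa-miR-17-5p: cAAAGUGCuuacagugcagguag
hsa-miR-20a-5p: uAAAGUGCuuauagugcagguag
hsa-miR-18a-5p: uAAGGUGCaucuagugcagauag
hsa-miR-19a-3p: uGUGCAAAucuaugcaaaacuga
hsa-miR-19b-3p: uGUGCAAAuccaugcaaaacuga
hsa-miR-92a-3p: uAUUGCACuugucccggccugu
hsa-miR-22-3p: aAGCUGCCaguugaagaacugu
hsa-miR-21-5p: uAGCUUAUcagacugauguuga
hsa-miR-15a-5p: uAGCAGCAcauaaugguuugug
hsa-miR-16-5p: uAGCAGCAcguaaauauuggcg
hsa-miR-155-5p: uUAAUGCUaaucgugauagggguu
hsa-miR-181a-5p: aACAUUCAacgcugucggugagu
hsa-miR-181b-5p: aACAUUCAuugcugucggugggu
hsa-miR-29b-3p: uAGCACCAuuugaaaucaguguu
hsa-miR-29c-3p: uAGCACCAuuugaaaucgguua
DLEU1 is absent from this list because no hairpin lay in its gene body on its strand. The seed was shared by miR-17 and miR-20a, by miR-19a and miR-19b, by miR-15a and miR-16, by miR-181a and miR-181b, and by miR-29b and miR-29c, each pair coming from the same host gene.

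The host genes fell into 2 sets. MIR17HG, MIR22HG, VMP1 and DLEU1 each had 1 super-enhancer within 50 kb, and MIR181A1HG, MIR155HG, DLEU2 and MIR29B2CHG had none. DLEU1, counted here among the genes with a region, carried no hairpin. The share of 4 in 8 stood beside 23.4% of all annotated genes, 22.0% of lncRNA genes and 30.7% of protein-coding genes by the same window. It also stood beside 21.5% of the 79 other genes named MIR...HG. With 8 genes chosen by name and no replicate value, nothing particular to the list was read from this difference. The most distant region that counted lay 7.49 kb from VMP1, and of the genes without a region MIR181A1HG came closest, at 61.6 kb. At MIR22HG a further region lay just outside the window, at 52.7 kb.

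**Figure D1:**
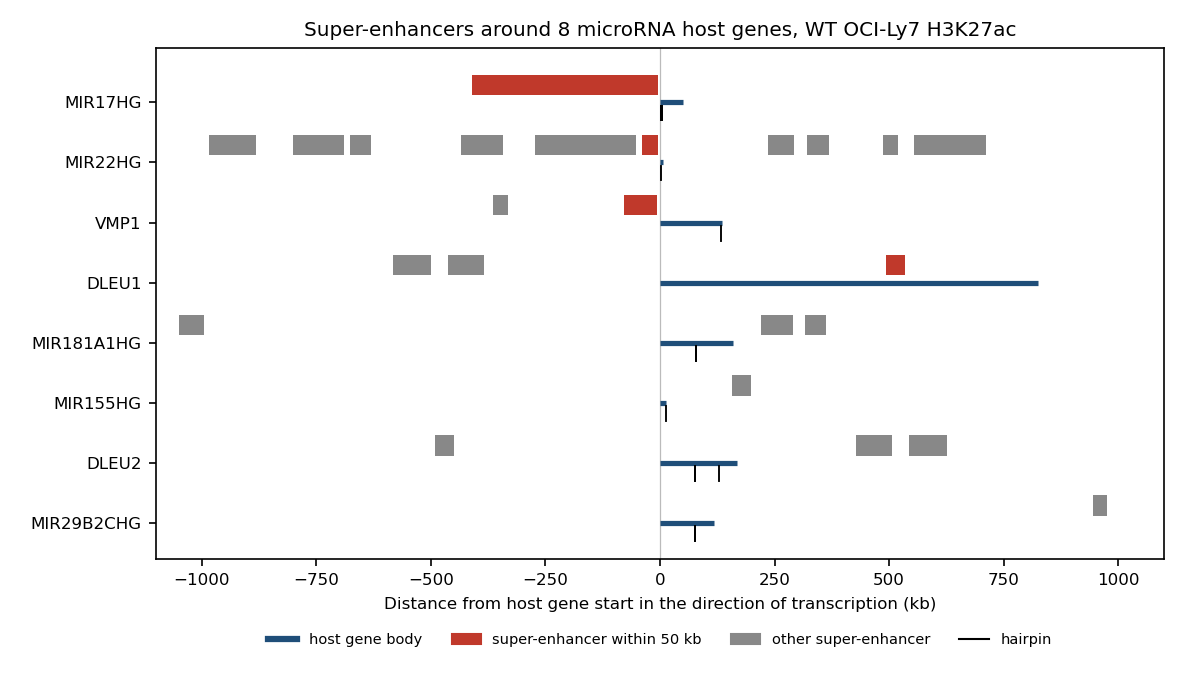
Super-enhancers (boxes) around the 8 host genes (blue lines), on an x axis in kb from the host gene start in the direction of transcription, with each hairpin as a black tick. The regions within 50 kb (red) at MIR17HG, MIR22HG and VMP1 end before the gene start and that of DLEU1 lies inside the gene, whereas the nearest region of the other 4 genes lies beyond the gene end.

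MIR17HG had by far the strongest of these regions. It lay at chromosome 13, 90937828 to 91344242, with a signal of 113958, which was 10.7 times the cutoff and rank 17 of 2615. It was the second longest of all regions at 406 kb and held 167 constituents, also rank 2 in the table. Constituents were packed at 4.11 per 10 kb, against a median of 2.65, which placed it at rank 68. Spread over its length, the signal came to 0.280 per bp, lower than the median, and took rank 1711. The high rank by signal thus went with length and number of constituents and not with density of signal. The signal came with no control column, and DNA copy number at this locus was not tested.

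The region ended 3.44 kb before the start of MIR17HG (ENSG00000215417.14, chromosome 13, 91347686 to 91397592, plus strand) and covered neither the gene start nor any of the 6 hairpins. Measured from that start it ran from -410 to -3.44 kb, so most of its length lay outside the 50 kb window. Its signal, rank and number of constituents are those of the whole region. The hairpins lay in an exon between 91350605 and 91351391, from 6.36 kb (MIR17) to 7.07 kb (MIR92A1) beyond the region. No protein-coding gene was overlapped, and among the 304 regions of that kind it had the second highest signal. Of its bases, 98.5% were outside both protein-coding and lncRNA genes, and the lncRNA genes touched were LINC00380 and LINC00379. The nearest protein-coding gene was GPC5, a cell-surface proteoglycan gene, 54.4 kb from the region.

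The MIR17HG region also stood alone on its chromosome. The next region was 15522 kb away on the lower side and 7101 kb on the higher side, so that it was the only region within 1 Mb of the gene, where protein-coding genes had a median of 3. Chromosome 13 held 43 regions, and this region had the highest signal of them and 11.2% of their summed signal. The next highest on the chromosome had a signal of 46565 (rank 267).

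The outermost constituent on the MIR17HG side is shown because it is the part of the region closest to the gene. It is the central 300 bases of that 401 bp peak window, at chr13:91343892-91344191 (hg38, plus strand), 3.5 kb from the MIR17HG start and in no annotated exon. Capitals mark a match to the octamer core ATGCAAA, read here on the reverse strand; octamer sites are bound by the OCT factors of B cells.
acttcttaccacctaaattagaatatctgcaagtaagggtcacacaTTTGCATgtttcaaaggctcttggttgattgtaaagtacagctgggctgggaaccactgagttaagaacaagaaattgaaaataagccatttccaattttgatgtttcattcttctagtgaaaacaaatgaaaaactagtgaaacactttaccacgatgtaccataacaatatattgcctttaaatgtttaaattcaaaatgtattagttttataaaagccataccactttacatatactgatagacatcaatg
The window had a GC content of 32% against a median of 49.7% over the 5230 outermost windows of all regions. A search on both strands covered the AP-1 motif TGANTCA, the E-box CACGTG, the ETS motif GGAAGT and ATGCAAA, which were present in 8.28%, 5.03%, 19.6% and 5.54% of those windows. None of these motifs contains another. Among the 4 windows closest to a host gene start, 1 for each region, the octamer core occurred in that of MIR17HG and the E-box in that of VMP1. AP-1 and ETS matches were absent from all 4. These matches are letters in a window and no evidence of binding.

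**Figure D2:**
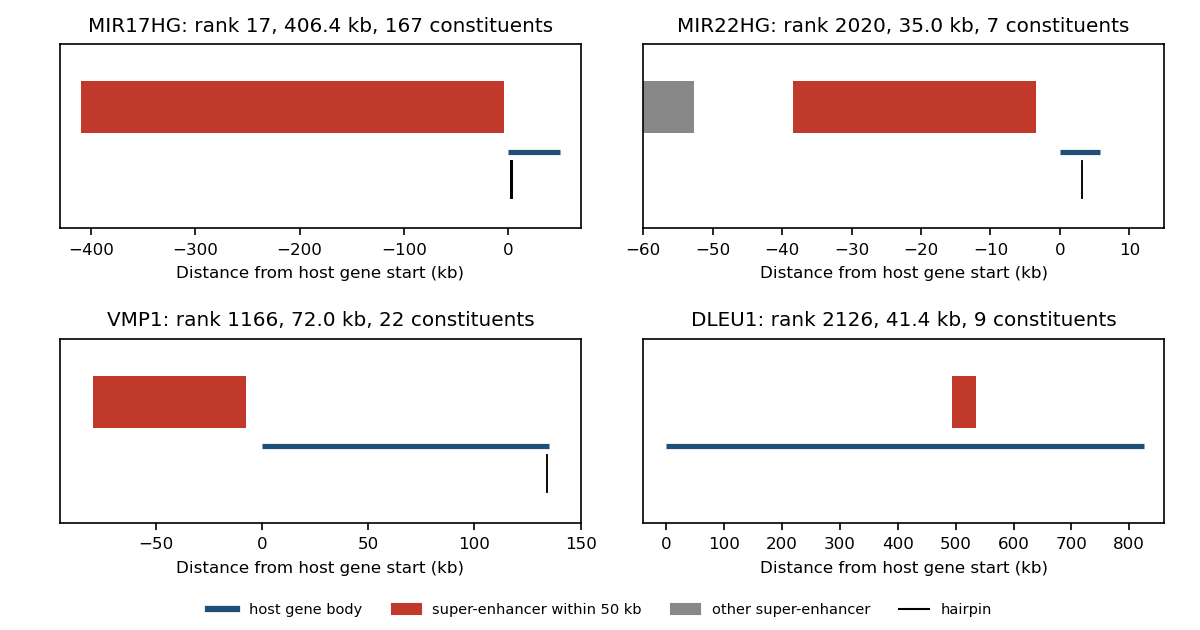
The super-enhancers of MIR17HG, MIR22HG, VMP1 and DLEU1 on an x axis in kb from the host gene start, each panel on its own scale, with the host gene as a blue line and hairpins as black ticks. The region of MIR17HG spans 406 kb and ends 3.44 kb before the gene start; no hairpin is covered in any panel.

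MIR22HG (ENSG00000186594.16, chromosome 17, 1711447 to 1717174, minus strand) is the short host transcript of miR-22, a microRNA with TET2 among its known targets. Its region lay at chromosome 17, 1720566 to 1755540, with a signal of 13734 (1.29 times the cutoff, rank 2020). It was 35 kb long with 7 constituents and a signal per bp of 0.393, the highest of the 4. The region began 3.39 kb upstream of the gene start and 6.58 kb from the MIR22 hairpin, and it overlapped WDR81 and SERPINF2, the latter encoding the plasmin inhibitor alpha-2-antiplasmin. Introns took 57.8% of its bases, exons 29.3%, and 12.9% lay in no protein-coding gene. MIR22HG was thus close to a weak region in a dense neighborhood: 10 regions lay within 1 Mb, with a summed signal of 341620. The region at 52.7 kb, over SERPINF1, SMYD4, RPA1 and RTN4RL1, was the stronger of the pair nearest the gene, with a signal of 46257, 63 constituents and rank 271.

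VMP1 (ENSG00000062716.13, chromosome 17, 59707192 to 59842255, plus strand) is the protein-coding gene among the 8. It encodes a membrane protein of autophagy, and the MIR21 hairpin, whose product is raised in many tumors, lies in its terminal part, 134 kb from the VMP1 start. Its region, at chromosome 17, 59627706 to 59699700, had a signal of 21296 (2.01 times the cutoff, rank 1166) over 72 kb with 22 constituents and 0.296 per bp. It ended 7.49 kb before the VMP1 start and lay over CLTC, the clathrin heavy chain gene, and PTRH2, with 80.5% of its bases intronic and 19.5% exonic. From the MIR21 hairpin it was 142 kb away. A region near VMP1 was therefore not a region near the hairpin, which GENCODE places in an exon at the other end of the gene.

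DLEU1 (ENSG00000176124.15, chromosome 13, 50082169 to 50906856, plus strand) is an 825 kb lncRNA gene that overlaps DLEU2 head to head. Its region lay inside the gene at chromosome 13, 50575877 to 50617319, 494 kb from the gene start. The signal was 13150 (1.24 times the cutoff, rank 2126) over 41.4 kb with 9 constituents and 0.317 per bp. The bases were intronic to 99.8% for DLEU1 and wholly intronic for the protein-coding gene DLEU7, whose name comes from the same deleted region. From DLEU2 the same region was 450 kb away on the upstream side, and the closest DLEU2 hairpin was 527 kb from it.

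**Figure D3:**
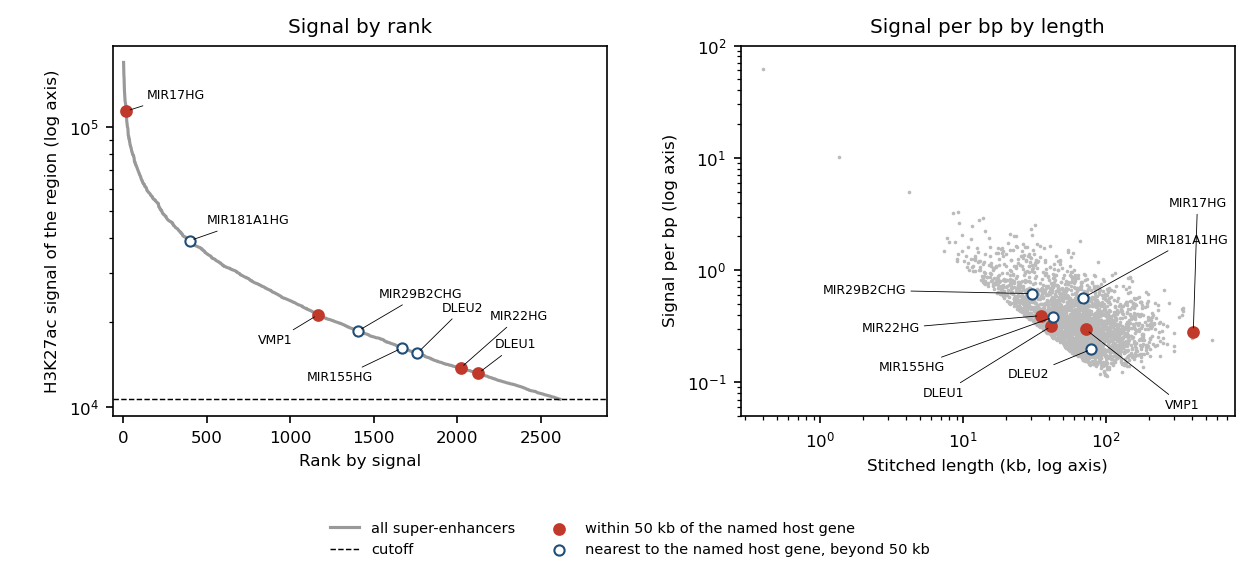
H3K27ac signal against rank (left) and signal per bp against stitched length (right) for the 2615 super-enhancers in gray, on log axes where labelled, with regions within 50 kb of a host gene in red and the nearest region of the other 4 genes as open circles. MIR17HG is at rank 17 by signal and at the long end of the length axis, with a signal per bp of 0.280, the lowest of the 4 red points.

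Across the 4 regions the signal per bp ran from 0.280 to 0.393, on either side of the median of 0.343, while signal ran from 13150 to 113958. Ranked by signal per bp, MIR22HG came first at rank 1037, followed by DLEU1 at rank 1479, VMP1 at rank 1611 and MIR17HG at rank 1711, so the region that was first by signal was last by density. Among genes no more than 2-fold shorter or longer than each host, the share with a region was 28.7% for MIR17HG, 23.9% for MIR22HG, 29.2% for VMP1 and 18.1% for DLEU1. For the 4 host genes without a region it was from 25.5% to 29.2%.

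All 3 regions that flanked a host gene lay upstream of its start, and none of the 4 regions contained the start of its host. Of 7388 genes flanked but not overlapped by a region within 50 kb, 50.9% had the nearest one upstream. Of 14503 genes with a region, 33.6% had their start inside a region, and of 4134 such lncRNA genes 40.4% did.

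MIR181A1HG (ENSG00000229989.6, chromosome 1, 198777861 to 198937471, minus strand) came closest of the genes without a region. Its hairpins give miR-181a and miR-181b, which act in lymphocyte development. The nearest region lay at chromosome 1, 198646983 to 198716230, 61.6 kb beyond the gene end and 143 kb from the hairpins. It was wholly within PTPRC, the gene for the leukocyte phosphatase CD45, and it had a signal of 39215 (rank 398), 21 constituents over 69.2 kb and 0.566 per bp. Next to MIR17HG this was the strongest region nearest to any of the 8 genes.

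MIR155HG (ENSG00000234883.7, chromosome 21, 25561810 to 25575168, plus strand) is the precursor of miR-155, an oncogenic microRNA of B-cell lymphoma. No region lay within 50 kb. The nearest, at chromosome 21, 25717864 to 25760432, was 143 kb beyond the gene end and 144 kb from the hairpin. It lay over ATP5PF, an ATP synthase subunit gene, and GABPA, an ETS factor gene, with a signal of 16201 (rank 1670), 9 constituents over 42.6 kb and 0.381 per bp. It was the only region within 1 Mb of MIR155HG.

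DLEU2 (ENSG00000231607.15, chromosome 13, 49956670 to 50125720, minus strand), host of miR-15a and miR-16, had its nearest region 258 kb beyond the gene end, at chromosome 13, 49620275 to 49698924, over ARL11 and EBPL. That region had a signal of 15494 (rank 1760), 14 constituents over 78.6 kb and 0.197 per bp, the lowest density among the regions nearest to the 8 genes. It lay 350 kb from MIR16-1 and MIR15A. MIR29B2CHG (ENSG00000203709.14, chromosome 1, 207760650 to 207879115, minus strand), host of miR-29b and miR-29c, was the most isolated. Its nearest region, at chromosome 1, 206903557 to 206933736 over IL24, FCMR and PIGR, was 827 kb away, with a signal of 18626 (rank 1405), 10 constituents over 30.2 kb and 0.617 per bp. Of all annotated genes, 30.3% were farther from a region than MIR29B2CHG, 52.7% were farther than DLEU2, 63.3% farther than MIR155HG and 74.6% farther than MIR181A1HG.

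**Figure D4:**
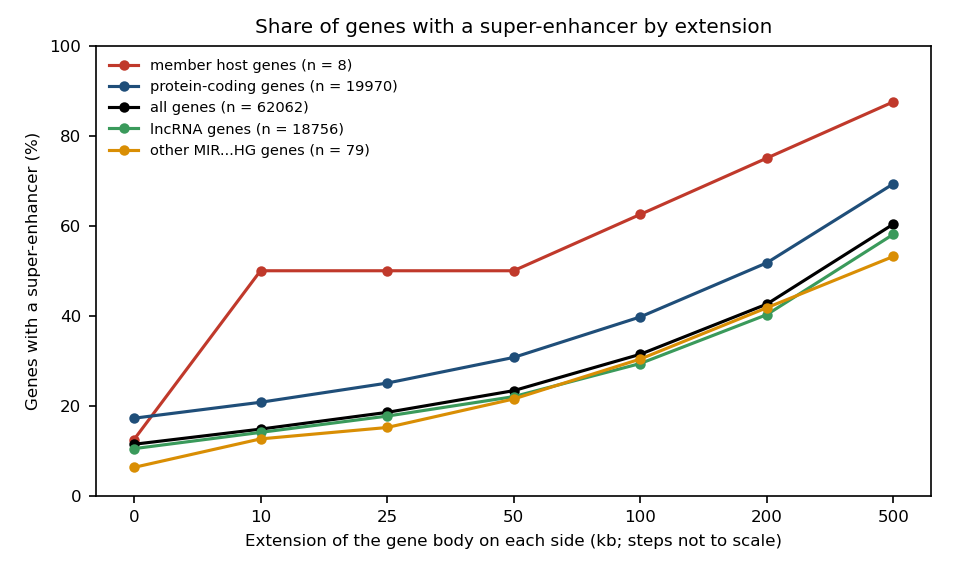
Share of genes with a super-enhancer (y axis, percent) by the extension of the gene body on each side (x axis, kb), for the 8 host genes and 4 reference sets. The host genes step from 1 of 8 with no extension to 4 of 8 from 10 to 50 kb, 5 of 8 at 100 kb and 7 of 8 at 500 kb, and each step is 1 or a few genes. The gene counted with no extension is DLEU1, which carries no hairpin.

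The hairpins themselves were then placed. The host genes carried 16 annotated hairpins, including MIR3613 in DLEU2, and none of the 16 was inside a region. Of the 1877 annotated hairpins in the genome, 6.66% were inside a region and 23.9% had a region within 50 kb. Of the 16, 7 were within 50 kb and all of these within 10 kb, namely the 6 of MIR17HG and MIR22. The others lay from 142 kb (MIR21) to 869 kb (MIR29B2) from the nearest region.

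The way the regions were built is set beside these counts, and its part in them was not tested. Peaks within 2500 bp of a transcription start site (TSS) were left out before stitching. The description of this step can be read as leaving out non-coding RNA starts as well or as dropping those starts from the set used, so which starts counted is not known here. Because a region begins and ends with a 401 bp peak window, the place of its outermost windows is known. Around hairpin starts, 4 such windows lay within 2.5 kb (1.6 per kb of distance) and 144 lay between 2.5 and 10 kb (19.2 per kb). The drop was of the same kind at protein-coding starts, with 35.2 per kb within 2.5 kb against 199.7 per kb beyond. At lncRNA starts it was smaller, 52.8 against 76.1 per kb. Region ends close to hairpins were thus rare. The 5230 windows of all regions were used for hairpins and the 5042 on chromosomes with RefSeq starts for the other sites.

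The zone within 2.5 kb of a start or hairpin took up the largest shares of the short host genes. In MIR22HG 99.3% of the gene body was within 2.5 kb of its start or its hairpin, in MIR155HG 46.3% and in MIR17HG 12.3%, while in the other 5 genes it was at most 7.48%. The part of the left-out peaks in the lack of a region at MIR155HG, or in the gap between region and start at MIR17HG and MIR22HG, was not tested. The table also held regions with more peak windows than listed constituents. The summed constituent length of the MIR17HG region came to 170 windows where 167 constituents were listed, and that of the MIR22HG region to 10 windows where 7 were listed. The VMP1 and DLEU1 regions had equal numbers. Such unlisted windows occurred in 88.3% of 1133 regions with a RefSeq protein-coding start inside and in 20.9% of the 1482 other regions. The 1482 include every region on a chromosome that lacked RefSeq starts, whether or not it holds a protein-coding start. Of 2615 regions, 201 had 3 or more unlisted windows. The MIR17HG region had unlisted windows without holding any protein-coding gene.

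A seed can be supplied by more than 1 locus, so the other hairpins whose mature strand has a seed of the 15 strands were located. There were 29, of which 8 had a region within 50 kb and 0 were inside a region. Of all annotated hairpins, 23.9% had a region within 50 kb and 6.66% were inside one, and nothing particular to these 29 was read from their counts. For the MIR17HG seeds, MIR106B, MIR93 and MIR25, a cluster within the replication gene MCM7, lay 3.17 to 3.64 kb from a region with a signal of 13887 (rank 1987). MIR92B lay 20.8 kb and MIR32 48 kb from a region. The X-linked relatives of the cluster, among them MIR106A, MIR20B and MIR363, were 4064 to 4065 kb from any region. The seeds of miR-17 and miR-92a thus occurred in other hairpins within 50 kb of a region, and those of miR-18a and miR-19 did not. MIR106B, MIR93, MIR25, MIR92B and MIR32 share only the seed and give mature strands other than those printed above. MIR92A2, which gives miR-92a-3p itself, was 4064 kb from any region. Whether these hairpins are expressed was not tested.

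For miR-181 the second locus was the nearer one. MIR181A2 and MIR181B2, which yield the same mature strands as MIR181A1 and MIR181B1, lay 15.6 and 14.4 kb from a region at chromosome 9 with a signal of 42659 (rank 332), against 143 kb at MIR181A1HG. MIR4262 lay 3.17 kb from a region, and MIR181C and MIR181D 80.8 and 80.6 kb. For miR-15a and miR-16 none of 6 relatives was within 50 kb: MIR15B and MIR16-2 in SMC4 were 3227 kb away, and the nearest, MIR6838, was 295 kb away. For miR-29, MIR29A and MIR29B1 were 707 and 708 kb away. No other hairpin shared the seed of miR-155 or of miR-22, and the only relative of miR-21, MIR590, was 104 kb from a region.

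**Figure D5:**
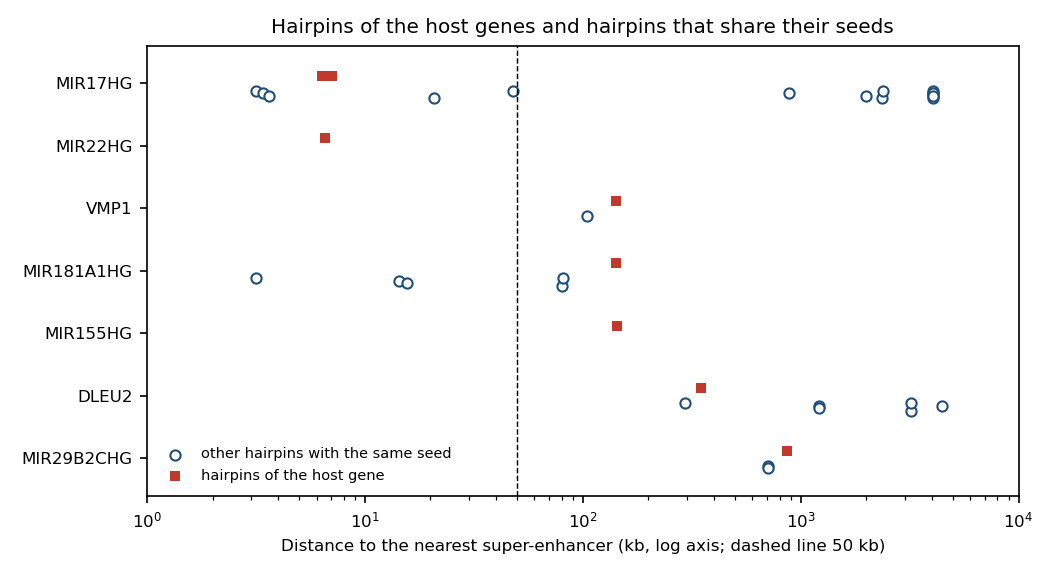
Distance in kb (log x axis) from the nearest super-enhancer for the hairpins of each host gene (red squares) and for other hairpins with the same seed (open circles), with the 50 kb window as a dashed line. MIR3613 of DLEU2 is not drawn. The MIR17HG hairpins sit at 6.36 to 7.07 kb, the MIR181A1HG hairpins at 143 kb with relatives at 3.17 to 80.8 kb, and every point of DLEU2 and MIR29B2CHG lies at 295 kb or more.

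The genes around the microRNA pathway were read by the same window. Of 14 genes of microRNA processing and silencing, 10 had a region, against 30.7% of protein-coding genes. A region overlapped the gene body in 6 of the 14, against 17.3% of protein-coding genes. The strongest was at TNRC6B (signal 62324, rank 125), whose product recruits the mRNA deadenylation machinery to Argonaute. AGO2, the Argonaute that can slice its target, had a region of rank 185 (signal 55076), TNRC6C of rank 556 and AGO4 of rank 1377. AGO1 and AGO3 shared 1 region (rank 2351). The genes without a region were RAN (84.3 kb), DICER1 (97.2 kb), DROSHA (446 kb) and PRKRA (2843 kb), named here after their values were seen.

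Of 24 published targets of these microRNAs, 16 had a region, again beside 30.7% of protein-coding genes. A region overlapped the gene body in 9 of the 24, beside 17.3% of protein-coding genes. The strongest were those of SOCS1, a cytokine signaling inhibitor targeted by miR-155 (signal 118871, rank 15), BTG2, an anti-proliferative gene targeted by miR-21 (rank 176), E2F1, a cell-cycle factor targeted by miR-17 and miR-20a (rank 221), and TCL1A, an AKT coactivator targeted by miR-29 and miR-181 (rank 255). The regions of SOCS1, BTG2 and E2F1 lay 8.02, 5.82 and 19.5 kb from the gene, and that of TCL1A overlapped it. BCL2, the target of miR-15a and miR-16, was 3204 kb from the nearest region, the farthest in the list, and was singled out after its value was seen. These counts are descriptions of lists chosen by name, and no test was made on them.

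Among the 79 other genes named MIR...HG, 17 had a region, and in 5 of them the region overlapped the gene body. The strongest regions were those of MIR193BHG (signal 72126, rank 79), MIR600HG (rank 150), MIR7-3HG (rank 288) and MIR181A2HG (rank 332). The MIR17HG region, at rank 17 and 406 kb, had a higher signal than all of these.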

How the data were processed

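The 2 WT H3K27ac CUT&RUN libraries stand behind the table. As described in the methods, the authors ran nf-core cutandrun with IgG controls, normalized depth by promoter reads, and obtained peaks from SEACR with summits from MACS2. The build was hg38 per the submitters' processing notes. ROSE was applied to WT H3K27ac at its setting of 2500 bp from a TSS, with non-coding RNA TSS removed, a phrase that does not say whether peaks at those starts or the starts themselves were taken out. The deposited signal is the ROSE signal of each stitched region for the pooled libraries, in relative units. Read counts and depth per library were not given with it, so neither counting error nor replicate error could be computed. Rank, number of constituents and their summed length were used as deposited, and positions were read as 1-based.

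Host genes, exons and hairpins were taken from GENCODE 44 and mature sequences, gene starts and seeds from RefSeq (GRCh38.p14). A region was counted when it overlapped the gene body extended by 50 kb by at least 1 bp. Peak windows were taken as 401 bp, since the summed length was an exact multiple of this in 2609 of 2615 regions. The members and gene lists were chosen with earlier results of these data known, so no chance test was made. The text names all 8 members, the protein-coding genes in their regions and, of each list, the 4 genes with the strongest region. The code for distances was checked against a direct computation on simulated positions. Alternatives changed the window, the region set, the genes counted and the ranking. Python 3.11.15 was used, together with pandas 2.3.3, numpy 2.4.6 and matplotlib 3.10.9.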

Additional observations from a re-analysis of the deposited data

How the results depend on the processing

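Of 35 alternative settings over 8 results, 7 left the value close to that reported and 28 moved it, where close means within 1.5 times for a count and within the 95% binomial interval for a share, which is narrow for shares of all genes. With small counts the first is wide: the host genes with a region went from 4 to 5 and their regions from 4 to 6 at 100 kb, and both were 4 at 25 kb. There were 3 host genes with a window around the TSS only, and 3 regions with at least 50% of their length in the window. The region of MIR17HG was the one that did not have that length inside. Of the 8 host genes, 1 had a region with no extension of the gene body, 2 when the window was set around the hairpins, 2 with the 1307 regions of highest signal and 2 with regions of at least 10 constituents; in the same order, without the hairpin window, the regions numbered 1, 2 and 2. The share of all annotated genes was 11.5% with no extension, 18.5% at 25 kb, 31.4% at 100 kb, 30.7% for protein-coding genes, 22.0% for lncRNA genes, 27.2% for genes of at least 10 kb and 13.2% with the 1307 strongest regions. The region of MIR17HG was in the top 0.65% by signal, 65.4% by signal per bp and 0.0765% both by constituents and by length. For DLEU1 these shares were 81.3%, 56.6%, 78.7% and 74.4%, for MIR22HG 77.2%, 39.7%, 86.5% and 81.3%, and for VMP1 44.6%, 61.6%, 30% and 38.4%. Hairpins inside a region numbered 0, and 7 lay within 10 kb and within 50 kb. These shifts follow from the construction of each setting (window, number of regions or quantity ranked). The WT libraries could not be left out in turn. No paired analysis was possible because both WT libraries share 1 pooled column. Without a value per library, the regions of DLEU1 and MIR22HG, at 1.24 and 1.29 times the cutoff, are those whose presence depends most on the cutoff.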
